A study of Homo sapiens with 20 samples.

Results

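HCT116 nuclei from cells given both Nutlin-3a and an inhibitory peptide were compared with nuclei from untreated cells, to see which genes lay back at the control level and which did not. The members were the 5 libraries of each group, 2 from experiment 1 and 3 from experiment 2, chosen by their labels, and they made up 10 of the 20 libraries of the series. The HCT116 line comes from a colorectal carcinoma and keeps an intact p53 gene. Untreated cells (DMSO_H2O) were electroporated without peptide and then kept for 3 hours in medium with 0.1% DMSO. Doubly treated cells (Nutlin_Peg6) were electroporated with 10 µM of a bivalent peptide and kept for the same 3 hours in 0.1% DMSO with 10 µM Nutlin-3a and another 200 nM peptide. Both groups therefore went through electroporation and received the DMSO vehicle, and all libraries held nuclear RNA after ribosomal RNA depletion. The other 10 libraries were Nutlin-3a without peptide (Nutlin_H2O) and peptide without Nutlin-3a (DMSO_Peg6), and they entered the models that share one estimate of the spread. No label says that the replicates came from separate cultures, so the p-values measure only the spread between these libraries.

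The transcription factor p53 is held low by MDM2, a ubiquitin ligase whose own gene p53 activates, and Nutlin-3a blocks the contact between the proteins. Active p53 binds its target genes and recruits the Mediator complex, a coactivator that bridges to RNA polymerase II. Its targets include feedback regulators, cell cycle inhibitors, death receptors and BCL2 family genes, and DNA repair and metabolic genes.

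Levels are reads per 1e+06 reads of the gene rows (RPM) after scaling between libraries, without correction for gene length. Between 36717795 and 63896604 reads per library fell on gene rows in experiment 1 and between 19052980 and 45533490 in experiment 2. The cells carried epithelial transcripts: EPCAM averaged 254 RPM and the keratin gene KRT8 1391 RPM in the 10 libraries, in RPM before scaling, as are the marker sums. The summed level of 7 epithelial markers was 2057 to 4362 RPM in untreated and 2061 to 3874 RPM in doubly treated libraries, and that of 5 blood markers was at most 6.76 RPM in any of them. Rows of structural RNAs (ribosomal, 7SL and the like) held 17.3 to 18.7% of the reads of untreated libraries and 19.6 to 23.8% of doubly treated ones in experiment 1, and 1.80 to 5.29% over both groups in experiment 2. Replicate 2 of Nutlin-3a without peptide in experiment 1 stood apart within that experiment. It correlated at 0.955 across genes with its replicate, against 0.992 for the doubly treated and 0.997 for the untreated libraries of that experiment. Replicates of experiment 2 correlated less closely, at 0.939 to 0.943 for untreated and 0.936 to 0.937 for doubly treated libraries.

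No gene passed the test over all 5 libraries a group. The 15958 genes tested averaged 0.5 RPM or more over the 20 libraries. Of these, 0 had a Benjamini-Hochberg adjusted p under 0.05 in the limma fit with a term for experiment (0% called), and 35 had an unadjusted p under 0.05, of which 27 were higher in doubly treated cells. With same-numbered libraries of an experiment as blocks, limma again called 0 genes, and 401 had an unadjusted p under 0.05, 267 higher and 134 lower. A missed threshold does not show a return to control, so the 95% interval of each net change was read against a band of 1.5-fold either way. It lay inside the band for 56.4% of all genes with the experiment term and for 96.6% with blocks. In bulk RNA, fewer responding cells and less RNA per cell cannot be told apart.

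The p53 target genes lay slightly above the control level. Over 161 tested targets the median net log2 change was 0.11, against 0.02 over all genes tested, and 120 of the 161 were above 0. Of the 161, 28 were higher in 5 of 5 same-numbered pairs (3.5% of all genes were) and 1, TNFAIP8, was lower in 5 of 5 (2.87% of all genes were). Without scaling between libraries 13 were higher in 5 of 5 pairs (2.26% of all genes), and the median of the targets in experiment 1 was -0.04 in place of 0.11. The interval of 57 targets lay inside the 1.5-fold band with the experiment term and that of 136 with blocks, and none lay wholly outside it. The median change of the same 161 genes was 0.24 for Nutlin-3a alone and 0.08 for peptide alone, both set against the same untreated libraries. In the blocked limma fit 23 of the 161 were higher and 1 lower at an unadjusted p under 0.05 (1.67% and 0.84% of all genes), and none passed after adjustment. By pair, the median of the targets was 0.13 and 0.05 in experiment 1, and it was 0.12, 0.20 and 0.02 in experiment 2.

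Feedback and cell cycle arrest genes lay farthest above control among the p53 lists. Their median net log2 change was 0.33 over 16 tested genes, and 9 of the 16 were higher in 5 of 5 pairs (3.5% of all genes were). Without scaling 3 were (2.26% of all genes), with a median in experiment 1 of 0.02 in place of 0.19. CDKN1A encodes the cyclin-dependent kinase inhibitor p21. It had 37.0 and 38.3 RPM in the untreated and 42.8 and 49.3 RPM in the doubly treated libraries of experiment 1, and 61.4, 44.7 and 40.4 against 80.8, 96.0 and 45.9 RPM in experiment 2. Every doubly treated library was above its same-numbered control, the groups did not overlap in experiment 1, and they overlapped in experiment 2. The net change of CDKN1A was 1.36-fold (log2 0.45, 95% interval -0.16 to 1.05), beside a log2 change of 1.18 for Nutlin-3a alone. That change is taken over both experiments, as are the other Nutlin-3a changes given. With Nutlin-3a alone CDKN1A had 118 and 180 RPM in experiment 1, and 88.6, 102 and 49.8 RPM in experiment 2. Doubly treated libraries thus lay well below the Nutlin-3a level in experiment 1 and near it in experiment 2. MDM2 had 152 and 144 RPM untreated and 177 and 149 RPM doubly treated in experiment 1, and 40.6, 70.8 and 21.6 against 73.8, 169 and 23.8 RPM in experiment 2. The groups overlapped in both experiments. With Nutlin-3a alone MDM2 had 469 and 262 RPM in experiment 1, and 76.9, 168 and 24.4 RPM in experiment 2. The MDM2 values of replicate 3 of experiment 2 were the lowest and nearly level, while those of replicates 1 and 2 stood well above their controls.

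TP53INP1, a nuclear cofactor that promotes p53 activity, had the smallest p-value of all genes in the blocked fit. It had 9.58 and 8.92 RPM untreated and 13.6 and 10.4 RPM doubly treated in experiment 1, and 22.7, 21.8 and 15.1 against 45.5, 48.3 and 17.5 RPM in experiment 2. Its net log2 change was 0.60 (95% interval -0.03 to 1.23 with the experiment term, 0.30 to 0.91 with blocks), and Nutlin-3a alone gave 0.71. SESN1, a sestrin that restrains mTOR signalling, had 6.97 and 5.86 against 7.80 and 6.66 RPM in experiment 1, and 7.06, 12.5 and 9.24 against 11.6, 32.0 and 10.3 RPM in experiment 2. Its net log2 change of 0.50 (interval -0.19 to 1.18) was above 0 in every pair and largest in replicate 2 of experiment 2. The antiproliferative gene BTG2 had a net log2 change of 0.46 (-0.36 to 1.28) beside 1.29 for Nutlin-3a alone, and the phosphatase gene PPM1D, another negative regulator of p53, one of 0.26 (-0.13 to 0.65) beside 0.49.

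**Figure D1:**
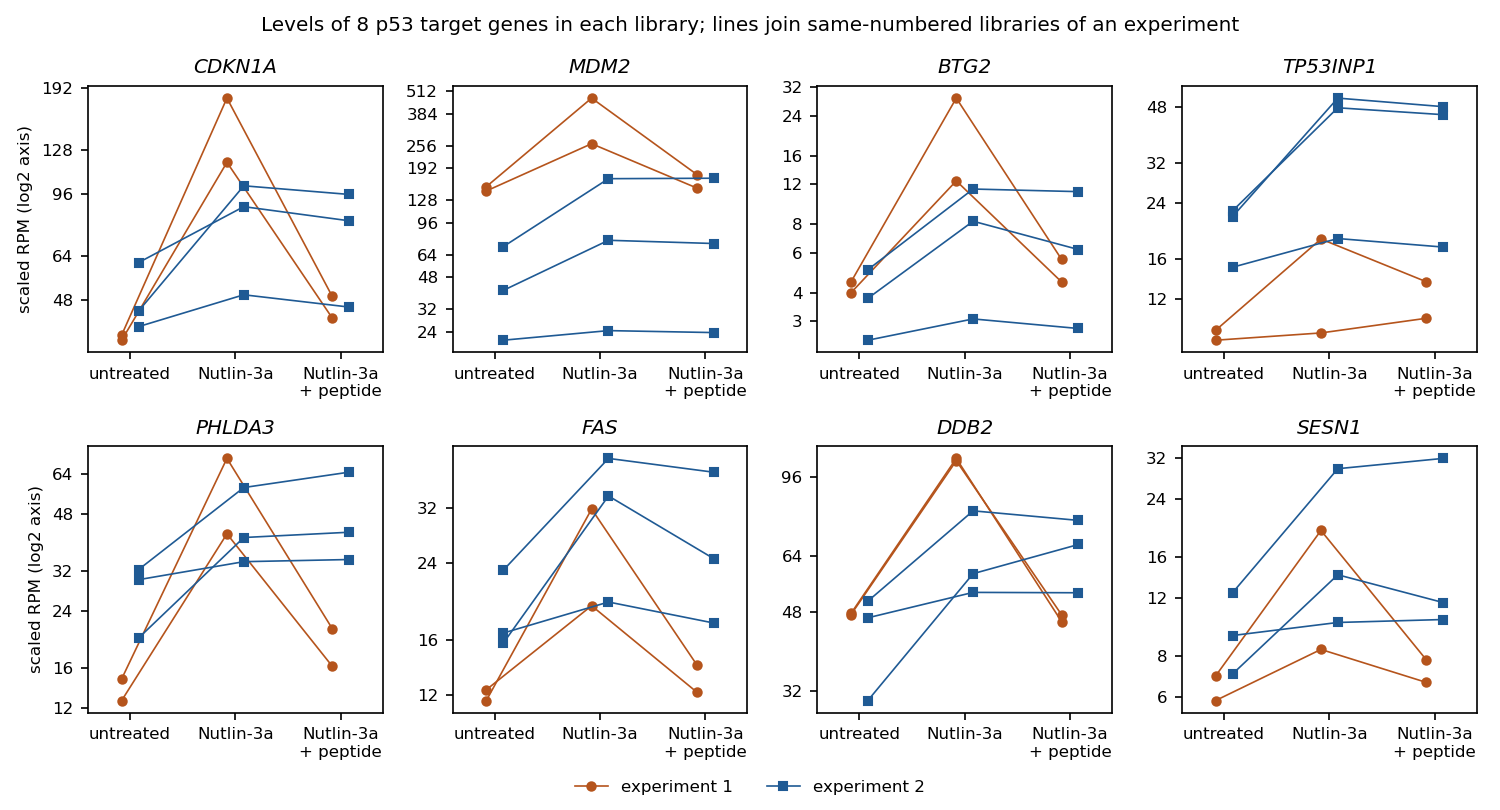
Scaled RPM, on a log2 axis, of 8 p53 target genes in each untreated, Nutlin-3a and doubly treated library, with lines joining same-numbered libraries and colours for the experiments. In experiment 1 the doubly treated points of DDB2 lie at the control level, while in experiment 2 all 3 lie above their controls.

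Apoptosis genes had a lower median, 0.16 over 20 tested genes, of which 6 were higher in 5 of 5 pairs (3.5% of all genes were). Without scaling 4 were higher and 1 lower in 5 of 5 pairs, beside 361 and 570 of all 15958 genes. The median in experiment 1 was then 0.01 in place of 0.17. PHLDA3, an inhibitor of AKT, had the largest net change of the 22 p53 genes described individually. It had 12.6 and 14.8 RPM untreated and 16.2 and 21.1 RPM doubly treated in experiment 1, and 32.2, 19.8 and 30.0 against 64.6, 42.1 and 34.6 RPM in experiment 2. The groups did not overlap in either experiment, and the net change was 1.54-fold (log2 0.62, interval 0.03 to 1.21). The death receptor gene FAS was at 0.33 (-0.14 to 0.81) and TNFRSF10B, the TRAIL receptor DR5, at 0.21 (-0.06 to 0.47), and the latter interval lay inside the 1.5-fold band. Nutlin-3a alone gave 0.84 for FAS and 0.62 for TNFRSF10B. Both have an antisense row on the opposite strand, FAS-AS1 and LOC286059, and since strand handling in the counting is not given in the sources used here, their reads cannot be told apart. The BH3 genes BBC3 (PUMA) and PMAIP1 (NOXA) were at 0.31 (-0.26 to 0.88) and 0.08 (-0.34 to 0.50). PMAIP1 was inside the band and above control in 3 of 5 pairs.

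Repair and metabolism genes had a median of 0.11 over 30 tested genes, with 5 higher in 5 of 5 pairs. The 95 other targets had a median of 0.08, with 8 higher and 1 lower. Among all genes 3.5% were higher and 2.87% lower in 5 of 5 pairs. Without scaling, 3 repair and metabolism genes and 3 of the other targets were higher in 5 of 5 pairs (2.26% of all genes). Their medians in experiment 1 were then -0.08 and -0.09, and the net median of the other targets was 0.05. XPC, which recognises damage in nucleotide excision repair, was at 0.26 (-0.01 to 0.53), inside the band and higher in every pair. DDB2, which acts with it, had 47.4 and 47.7 RPM untreated and 47.4 and 45.7 RPM doubly treated in experiment 1, against 30.5, 50.8 and 46.6 RPM untreated and 67.9, 76.8 and 52.99 RPM doubly treated in experiment 2. DDB2 was thus level with control in experiment 1, and in experiment 2 the groups did not overlap. FDXR, a mitochondrial reductase, was at 0.12 (-0.37 to 0.61), and the secreted factor GDF15 at 0.48 (-0.50 to 1.47). GDF15 had 265, 47.7 and 156 RPM in the untreated libraries of experiment 2, a spread wider than its change in any pair. Over these 22 genes all net changes were above 0, 13 were higher in 5 of 5 pairs (3.5% of all genes were), and replicate pair 2 of experiment 2 gave the largest change for 16 of them. Without scaling 0 of the 22 net changes turned sign, but the 5 of 5 counts of the p53 lists fell, as given above.

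**Figure D2:**
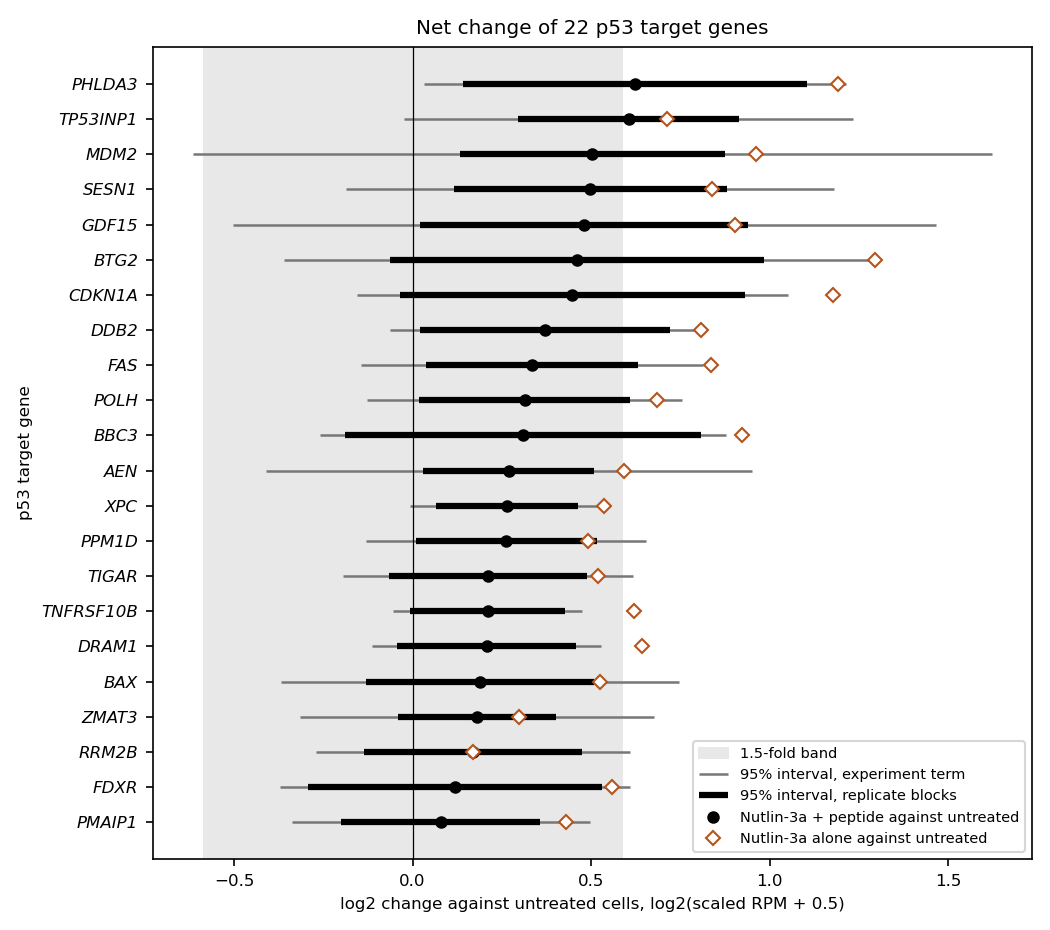
Net log2 change (points) of 22 p53 target genes with 95% intervals from the fit with an experiment term (thin) and with replicate blocks (thick), the change under Nutlin-3a alone (diamonds) and the 1.5-fold band (grey). Net changes run from 0.08 for PMAIP1 to 0.62 for PHLDA3, and 4 thin intervals lie inside the band.

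On hg38 the CDKN1A row spans chromosome 6, 36678710 to 36685800, the PHLDA3 row chromosome 1, 201465479 to 201469171, the SESN1 row chromosome 6, 108986437 to 109001458, and the DDB2 row chromosome 11, 47214942 to 47238849. The MDM2 row spans chromosome 12, 68808172 to 68839849, though experiment 2 lists an isoform that begins at 68809017. These are whole isoforms with their introns.

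The 250 bases upstream of RefSeq gene starts (GRCh38.p14) were searched for the p53 half-site consensus, which reads the same on both strands. Taking the first window listed for each symbol, 131 of the 161 targets had one, and 10 of these (7.63%) held a half-site, against 501 of 10904 windows of the genes tested (4.59%) and 5.53% of all 27305 windows. The count depends on the window taken, since 5191 symbols have several. With the window nearest the start of the file's own isoform, at most 200 bases away, a rule added after the first count was seen, 11 of 85 targets (12.9%) and 4.47% of 7138 windows of the genes tested held one, but only 52.8% of the targets then had a window, too few for a comparison. Of the 28 targets higher in 5 of 5 pairs, 23 had a first-listed window and 3 of those (AEN, ISCU and RPS27L) a half-site. RPS27L, a ribosomal protein paralogue and feedback target, is shown because its half-site (capitals) lies upstream of both the RefSeq start and the start of its row. The stretch is chr15:63157482-63157581, minus strand, and the half-site begins 59 bases upstream of the RefSeq start. A match is a description of the letters and not a binding site.
RPS27L: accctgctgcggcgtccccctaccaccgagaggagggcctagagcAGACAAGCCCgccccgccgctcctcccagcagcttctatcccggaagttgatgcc
RPS27L had 14.8 and 16.0 RPM untreated and 22.7 and 18.2 RPM doubly treated in experiment 1, and 62.6, 57.9 and 49.6 against 95.02, 67.6 and 56.6 RPM in experiment 2. It was higher in every pair, and the groups overlapped in experiment 2.

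The experiments were then set side by side. The test of the difference in net change between them called 0 of 15958 genes in the limma fit of 20 libraries (Benjamini-Hochberg adjusted p under 0.05), 95 genes had an unadjusted p under 0.05, and with blocks the call was again 0. A limma fit of the 10 libraries alone, with the replicate pairs as blocks (the paired fit), called 2119 of 15989 genes as different, 1424 with the higher net change in experiment 1 (8.91%) and 695 in experiment 2 (4.35%). Without scaling the balance turned, with 430 of 3894 calls higher in experiment 1 and 3464 in experiment 2. Within experiments it called 1296 genes higher (8.11%) and 585 lower (3.66%) in doubly treated cells of experiment 1, and 60 higher (0.375%) and 20 lower (0.125%) in experiment 2. Only 2 rows were called higher in both, the metallothionein rows MT1B and MT1DP, whose reads may be shared with near-identical copies. These calls rest on the pairing, since the same 10 libraries without blocks gave 0. The 4 libraries of experiment 1 fitted alone without blocks gave 59 calls, 11 higher and 48 lower, with 2 ribosomal protein genes higher. The calls of the paired fit also rest on both pairs of experiment 1, since leaving out pair 1 or pair 2 left 202 or 182 calls there. In experiment 2, leaving out pair 1, 2 or 3 gave 6, 183 or 258 calls.

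In experiment 2, 11 p53 targets rose and 0 fell of 161 in the paired fit, beside 0.375% and 0.125% of all genes. With median-of-ratios scaling 6 rose, and without scaling 20, and in neither did any fall. Of the 11, 6 were feedback and arrest genes. CDKN1A rose by 0.56 ± 0.11 (log2 ± SE, limma, Benjamini-Hochberg adjusted p = 0.0313), MDM2 by 0.75 (adjusted p = 0.0112), TP53INP1 by 0.77 (adjusted p = 0.00868), PHLDA3 by 0.76 (adjusted p = 0.00588) and DDB2 by 0.64 (adjusted p = 0.0161), each over 3 pairs. SESN1, PPM1D, the polo-like kinase gene PLK3, the lesion bypass polymerase gene POLH, the F-box gene FBXO22 and the noncoding RNA LINC01021 made up the rest. The SE and p-values of the paired fit use a spread pooled over both experiments and moderated across genes, and not that of the 3 pairs alone. The pairs were uneven: CDKN1A had 61.4, 44.7 and 40.4 RPM untreated against 80.8, 96.0 and 45.9 RPM doubly treated. With median-of-ratios scaling CDKN1A, SESN1, POLH, FBXO22 and LINC01021 missed the threshold (CDKN1A at 0.54, limma paired fit, adjusted p = 0.0527). In experiment 1 none of these 11 was called, and the paired fit called a different set of p53 targets, 18 higher (8.11% of all genes) and 7 lower (3.66%), so the share called was close to the background. Without scaling the direction of these calls turned, with 5 targets called higher and 15 lower in experiment 1, beside 2.34% and 16.6% of all genes. The called genes of experiment 1 included TRIAP1, an inhibitor of apoptosis (0.45, adjusted p = 0.00347), ISCU, an iron-sulfur scaffold (0.53, adjusted p = 0.00134), and PIDD1, which fell by 0.43 (adjusted p = 0.0131). The test of the difference called MDM2 (-0.61, experiment 1 minus 2, adjusted p = 0.0452), PLK3 (-0.56, adjusted p = 0.0113) and DDB2 (-0.67, adjusted p = 0.0183), and not CDKN1A (-0.27, adjusted p = 0.320), TP53INP1 (-0.42, adjusted p = 0.162) or PHLDA3 (-0.33, adjusted p = 0.240), by limma's paired fit with Benjamini-Hochberg adjustment. Without scaling TP53INP1 was also called (-0.64, limma, adjusted p = 0.0363). With median-of-ratios scaling MDM2 missed the threshold of that test (-0.61, limma, adjusted p = 0.0539). Over the 161 targets the paired fit called the difference for 10 higher in experiment 1 (6.21%) and 14 higher in experiment 2 (8.7%). Among all genes these shares were 8.91% and 4.35%. Without scaling the counts were 3 and 43, beside 2.69% and 21.7% of all genes. Within experiment 2, leaving out its pair 1 left 0 p53 targets called, and leaving out its pair 3 gave 32.

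**Figure D3:**
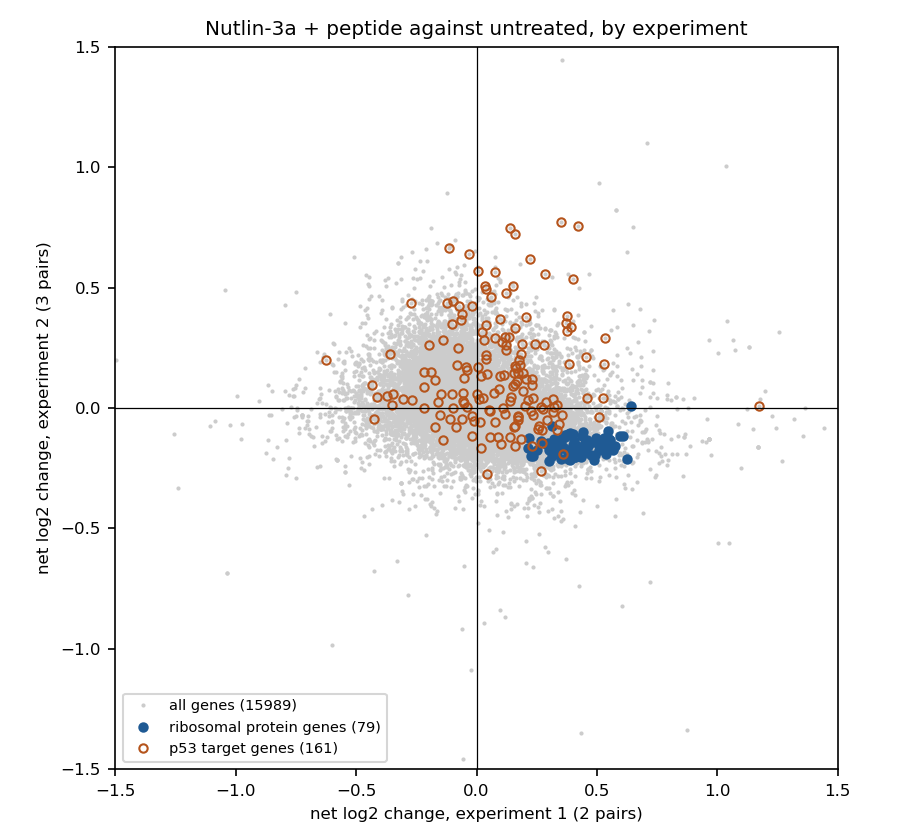
Net log2 change in experiment 1 (x axis, 2 pairs) against experiment 2 (y axis, 3 pairs) from the paired fit for 15989 genes, with 79 ribosomal protein genes (filled) and 161 p53 targets (open); 31 genes lie outside the axes. The ribosomal protein genes lie right of 0 and, but for 1, below 0, and 11 p53 targets called in experiment 2 reach up to 0.77 on the y axis.

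Genes outside the p53 program also set the experiments apart. Of 79 genes of cytosolic ribosomal proteins, 75 were called higher in doubly treated cells of experiment 1 (8.11% of all genes were) and 0 in experiment 2, and the difference was called for all 79 (8.91% of all genes). Their median change was 0.40 in experiment 1 and -0.16 in experiment 2. RPS21 had 109 and 120 RPM untreated and 158 and 193 RPM doubly treated in experiment 1, and 596, 252 and 317 against 530, 236 and 298 RPM in experiment 2. All pairs of experiment 1 were higher and all of experiment 2 lower. Without pair 1 or pair 2 of experiment 1, 15 and 9 ribosomal protein genes were still called there. Without scaling 43 were (2.34% of all genes were called higher), with a median of 0.23.

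Immediate early genes, which respond within minutes to growth factor and stress signals, followed the same split, with 18 of 47 called higher in experiment 1 (8.11% of all genes were) and 4 called lower in experiment 2 (0.125% of all genes). Without scaling these counts were 6 and 2 (2.34% and 0.0938% of all genes). EGR1, a zinc finger factor, had 12.9 and 17.7 RPM untreated and 21.6 and 27.4 RPM doubly treated in experiment 1, and 44.7, 44.3 and 202 against 34.2, 34.7 and 175 RPM in experiment 2. AMOTL2, an angiomotin induced by YAP, had 89.2 and 97.4 against 109 and 121 RPM in experiment 1, and 126, 33.3 and 151 against 73.9, 21.9 and 112 RPM in experiment 2. EGR1 rose by 0.67 in experiment 1 (limma paired fit, Benjamini-Hochberg adjusted p = 0.000135) and was at -0.31 in experiment 2 (adjusted p = 0.0509), and AMOTL2 rose by 0.30 (adjusted p = 0.0277) and fell by 0.60 (adjusted p = 0.000283). JUN and the matricellular gene CYR61 were also called in opposite directions, and CTGF was called lower in experiment 2 and not called in experiment 1. Without scaling EGR1 was still called higher in experiment 1 and AMOTL2 and CYR61 lower in experiment 2, while AMOTL2, JUN and CYR61 in experiment 1 and JUN and CTGF in experiment 2 were not called.

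Further lists had members called higher in experiment 1, where 8.11% of all genes were. They were 18 of 52 replication-dependent histone genes, 9 of 23 heat shock genes, 11 of 32 genes of the ATF4 and unfolded protein responses and 7 of 24 cholesterol synthesis genes, with 0 called in experiment 2. These calls depend on the scaling. Without it they were 9 histone, 0 heat shock, 2 ATF4 and unfolded protein response and 0 cholesterol synthesis genes (2.34% of all genes). With median-of-ratios scaling they were 15, 5, 8 and 5 (6.79% of all genes). The median histone row had 40.9 to 59.2 RPM before scaling in libraries of experiment 1, but 0.0945 to 0.266 RPM in experiment 2. The latter is below the 0.5 RPM added before the logarithm, so the lack of histone calls in experiment 2 is uninformative. Of 53 cell cycle genes 5 were called higher in experiment 1 (9.43%), a share near the 8.11% of all genes, and 0 in experiment 2. Without scaling 0 were called higher and 6 lower (11.3%) in experiment 1, beside 2.34% and 16.6% of all genes. The median of the list there was then -0.02 in place of 0.15, and in experiment 2 it was -0.16 with scaling. The difference between experiments was called for 23 of the 53, all higher in experiment 1 (43.4%, beside 8.91% of all genes). This too depends on the scaling, since without it 3 were called higher in experiment 1 and 4 in experiment 2 (2.69% and 21.7% of all genes). Of 33 Mediator subunit and kinase module genes, 2 (MED8 and MED20) were called higher (6.06%) and 1 (MED15) lower (3.03%) in experiment 1, shares no larger than the 8.11% and 3.66% of all genes, and 0 in experiment 2. Without scaling 0 were called higher and 6 lower (18.2%) in experiment 1, the latter near the 16.6% of all genes called lower in that setting. In experiment 2, 1 was then called higher (3.03%, beside 0.951% of all genes). With median-of-ratios scaling 0 were called higher and 1 lower in experiment 1 (6.79% and 4.1% of all genes). The long noncoding RNA NEAT1, the scaffold of paraspeckles, had 215 and 216 RPM untreated and 148 and 166 RPM doubly treated in experiment 1, and 108, 140 and 87.4 against 190, 246 and 90.0 RPM in experiment 2. NEAT1 fell by 0.46 in experiment 1 (limma paired fit, Benjamini-Hochberg adjusted p = 0.0242) and rose by 0.55 in experiment 2 (adjusted p = 0.0199).

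The scaling bears on the direction of the calls over all genes. Of the 1881 calls in experiment 1, 68.9% were higher, and without scaling 12.4% of 3022 calls were, with the median of all genes at -0.14. The structural RNA share was also higher in the doubly treated libraries of experiment 1, as given above, and rows called higher there had a median span of 3.69 kb against 26.2 kb for rows called lower and 23.5 kb for the others. The part of these in the results was not tested.

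NRF2 target genes, which defend against oxidants, were called in both experiments. The paired fit called 7 of 22 higher and 1 lower in experiment 1 (8.11% and 3.66% of all genes were) and 4 higher and 0 lower in experiment 2 (0.375% and 0.125%), with none higher in both. Without scaling 3 were called higher and 3 lower in experiment 1 (13.6% each, beside 2.34% and 16.6% of all genes). In experiment 2, 5 were then called higher (22.7%, beside 0.951% of all genes). GCLM, a subunit of the enzyme that starts glutathione synthesis, had 65.1 and 66.8 RPM untreated and 76.3 and 73.7 RPM doubly treated in experiment 1, and 73.3, 106 and 73.6 against 95.6, 157 and 94.1 RPM in experiment 2. GCLM was higher in 5 of 5 pairs, as was its partner GCLC, and it rose by 0.43 in experiment 2 (limma paired fit, Benjamini-Hochberg adjusted p = 0.00558). Haem oxygenase HMOX1 and OSGIN1 were the other genes called there, and the ferritin genes FTL and FTH1 were among those called in experiment 1.

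**Figure D4:**
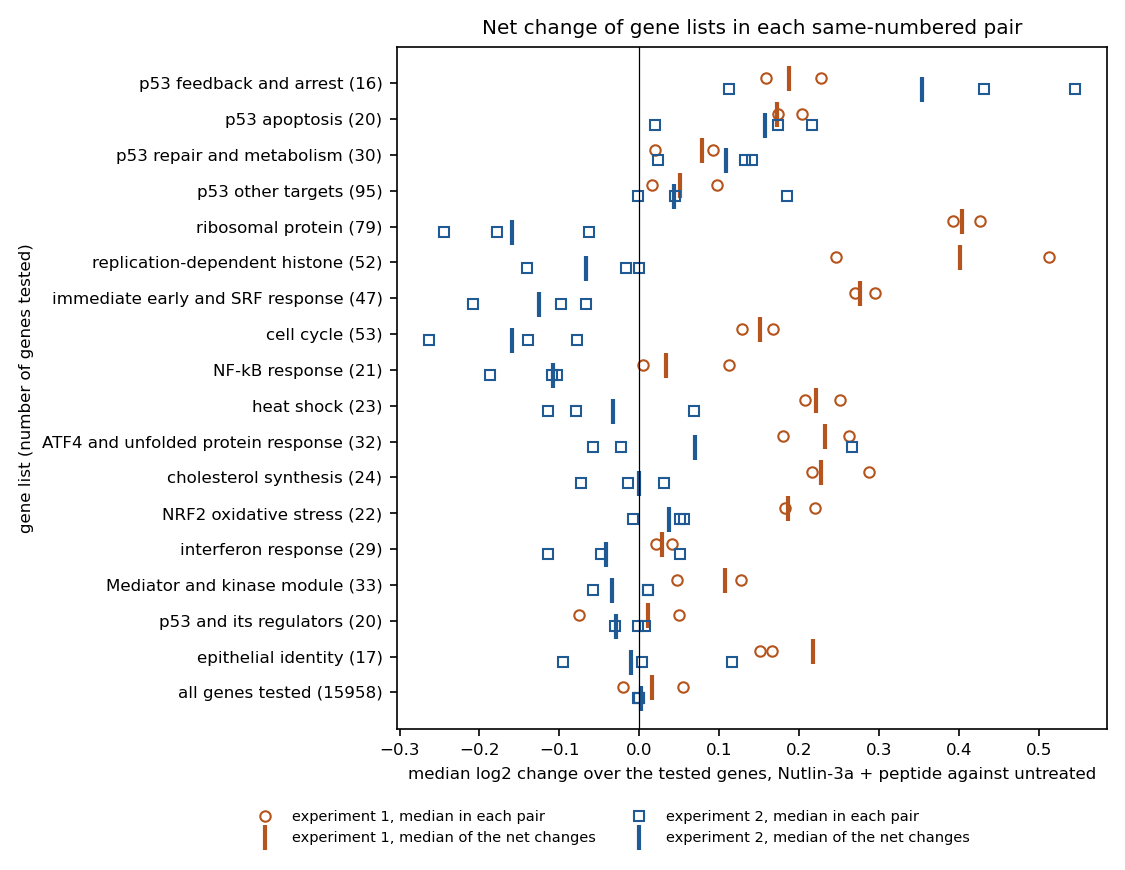
Median log2 change of gene lists, doubly treated against untreated, in each same-numbered pair (open symbols) and per experiment (bars), with the number of genes tested. The p53 lists lie at or above 0 in nearly all pairs, though without scaling 2 of the 4 have a median below 0 in experiment 1, and the ribosomal protein list at 0.40 in experiment 1 and -0.16 in experiment 2.

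Outside the lists, the rises with the smallest p-values in the blocked fit were of low rows, and none passed adjustment. TMPO-AS1, antisense to the nuclear lamina gene TMPO, had 2.20 and 2.58 RPM untreated and 3.42 and 4.58 RPM doubly treated in experiment 1, and 0.348, 2.86 and 0.859 against 0.692, 3.60 and 1.44 RPM in experiment 2. It was higher in 5 of 5 pairs, as were IPO9-AS1, TYMSOS, KRCC1 and RDH14, whose net log2 changes were 0.43, 0.47, 0.47 and 0.37. TMPO-AS1, IPO9-AS1 and TYMSOS lie opposite TMPO, IPO9 and TYMS, and RDH14 shares its row's span with NT5C1B-RDH14, so their reads cannot be told from those of their partners. Among the lower genes, the polarity kinase gene PRKCZ had 80.9 and 80.2 RPM untreated and 47.3 and 51.7 RPM doubly treated in experiment 1, and 31.4, 28.1 and 27.8 against 31.2, 23.3 and 27.0 RPM in experiment 2. Its row begins at 2050470 in experiment 1 and at 2104716 in experiment 2, so the levels of the experiments cover different spans. The glycolytic regulator PFKFB3 was at -0.20 and the kinase inhibitor gene PKIA at -0.46, each lower in 5 of 5 pairs.

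The double treatment was also set against the sum of the single treatments. The departure, the log2 change under both minus that under Nutlin-3a alone and that under peptide alone, was called for 0 of 15958 genes by limma with the experiment term (28 at an unadjusted p under 0.05) and for 0 with blocks (292). It was -0.95 ± 0.41 (SE) for CDKN1A, -0.99 for BTG2, -0.90 for PHLDA3, -0.72 for FAS and -0.49 for TNFRSF10B, none past the threshold. These signs say little, since the choice of genes bears on them. FAS and TNFRSF10B were among the 5 negative departures with the smallest p in the blocked fit. CDKN1A, BTG2 and PHLDA3 were among the 10 p53 targets with the largest Nutlin-3a change, which the departure subtracts. The 5 positive departures picked by the same p were DNMBP-AS1, MIR6873, LOC101927865, MIR4258 and KCNIP4. Over the feedback and arrest genes the median departure was -0.38, and over all genes 0.01. These values share the untreated and the Nutlin-3a libraries with the changes above.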

How the data were processed

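RNA-seq of HCT116 nuclei was deposited as 1 table per experiment with 26485 gene rows. Per the submitters' processing notes, HISAT2, bedtools and limma were used with the build hg38; versions, roles and strand handling are not given in the sources used here. The authors' deposited values are neither counts nor plain RPM, which the design had assumed: they are reads per 1e+06 (RPM) divided, row by row, by the end position less a thousandth of the start position. Multiplying this back gave columns summing to 1e+06 and whole reads for 100% of values (tolerance 0.001). For 1667 symbols, among them MDM2, ISCU, TNFAIP8, PRKCZ, PFKFB3, C22orf34 and KCNIP4, the experiments list different isoforms.

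Libraries were scaled by a trimmed mean of M values (30% of log ratios, 5% of abundances), and log2(scaled RPM + 0.5) of genes averaging 0.5 RPM or more was fitted by limma 3.58.1 with a trend in R 4.3.3. A fold change on this scale understates the change of low genes. A call is a Benjamini-Hochberg adjusted p under 0.05 over all genes. The procedure was tested on simulated data, and Python 3.11.15 with matplotlib 3.10.9 drew the figures. The members and lists were chosen with earlier results of these data known. The rule for named genes took a panel of 22 p53 genes, the 10 p53 targets with the largest change under Nutlin-3a alone, the 10 rises and 10 falls with the smallest p in the blocked fit, up to 3 members of each other list by that p, and up to 5 each way for the experiment difference and the departure. RPS27L, TRIAP1, PIDD1, PLK3, FBXO22, LINC01021, TNFAIP8, EGR1, AMOTL2, JUN, CYR61, CTGF, NEAT1, HMOX1, OSGIN1, FTL, FTH1, MED8, MED20 and the genes named among calls of 5 or fewer fall outside it and were chosen after their values were seen.

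No label states pairing. Deviations of same-numbered libraries from their group means correlated, for the 2 groups, at 0.289 in experiment 1 and 0.914 to 0.926 in experiment 2, so same-numbered libraries were taken as pairs. Deviations of a group of 2 are mirror images, which makes the check weak in experiment 1. The paired fit of 10 libraries was planned, and its contrasts within an experiment were added after the data were seen. Other settings were other scalings, filters, pseudocounts, limma-voom, single experiments, structural rows left out and each library left out.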

Additional observations from a re-analysis of the deposited data

Results flagged for a closer look

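Some results had every pair of experiment 1 on one side of 0 and every pair of experiment 2 on the other. For the medians of gene lists these differences (log2, experiment 1 minus experiment 2) were 0.56 for ribosomal protein genes, 0.40 for immediate early genes, 0.31 for cell cycle genes and 0.14 for NF-kB response genes, and the differences of these medians were not tested. Without scaling, the medians of the cell cycle and NF-kB lists in experiment 1 were -0.02 and -0.11, below 0 as in experiment 2. Among single genes they were -0.67 for DDB2, 0.73 for RPS21, 0.86 for DBI, an acyl-CoA binding protein gene, and 0.89 for the small nucleolar RNA row SNORD10. In the limma fit of 20 libraries none of these genes passed the test of the difference. Some values of experiment 1 lay very near 0. The NF-kB list had a median of 0.004 in pair 2, and DDB2 had 47.39 RPM untreated against 47.36 RPM doubly treated in pair 1.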

How the results depend on the processing

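The net change stayed at 0 calls under other scalings, pseudocounts, limma-voom and the leaving out of each of 11 libraries, and 1 gene (LINC01251) was called with no filter. With replicate blocks for the pairing, the net change and the departure again gave 0 calls, and the p53 targets with an interval inside the 1.5-fold band went from 57 to 136. That count was 142 in the paired fit of 10 libraries and also in the blocked fit of 19 libraries that left out replicate 2 of Nutlin_H2O in experiment 1, 129 with blocks in limma-voom, 107 with a pseudocount of 5, 7 and 27 in experiment 1 and 2 alone, and 102 and 120 in each alone with blocks. In the paired fit it was 131 in experiment 1 and 132 in experiment 2, and without blocks 125 in the 4 libraries of experiment 1 and 7 in the 6 of experiment 2.

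Experiment 1 gave 5 calls in the blocked fit of 20 libraries (DBI, SNORA43, SNORD10, MAD1L1 and C22orf34), 838 without that replicate 2, 1881 in the paired fit and 59 in its 4 libraries without blocks, and experiment 2 gave 80 in the paired fit. The difference between experiments was called for 2119 genes in the paired fit, for 1084 in the blocked fit of 19 libraries, and for 0 to 3 with 1 library left out of the 20, 3 of them without replicate 1 of the doubly treated cells of experiment 1. The departure was called for 4 genes with blocks in limma-voom (GRAPL, RNU4-1, RNU4-2 and RNU5E-1), 1 (SNORD24) in experiment 1 alone and 17 there with blocks. The cause of these moves was not tested. With 1 library left out, the median net change of the p53 targets was 0.0726 to 0.136 and the inside-band count 42 to 66. Low rows are limited by depth, since the shallowest library held 18787172 reads.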

Other observations

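Metallothionein rows moved in ways that near-identical rows make uncertain. MT1X, a zinc-binding protein gene, was higher in 5 of 5 pairs, with 16.8 and 17.9 RPM untreated and 19.6 and 66.2 RPM doubly treated in experiment 1, and 44.1, 32.1 and 28.4 against 55.9, 50.2 and 118 RPM in experiment 2. The zinc exporter gene SLC30A1 was higher in 5 of 5 pairs as well, with a net log2 change of 0.33. MT1B was listed at 0 in 3 of the 5 untreated libraries and at 41.2 to 84.2 RPM in 4 of the 5 doubly treated ones. However, untreated replicate 2 of experiment 2 had 47.9 RPM, and untreated replicate 3 had 0.0419 RPM. Doubly treated replicate 1 of experiment 1 had 0.418 RPM. MT1A and MT1L were called lower in experiment 2, and reads of these rows may be shared out among near-identical copies.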
